A study of Setaria viridis with 22 samples.

Results

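Within the transcriptome of Setaria viridis inflorescences, 150 genes were defined by a late fall in the wild type. The wild type is the accession A10.1, and the mutant is *spp1* (*sparse panicle1*), which carries a lesion in an AUX1-type auxin importer and was studied in the A10.1 background. Of 35214 primary transcripts, 12029 reached a mean level of 5 FPKM at 12 days after sowing (DAS) in A10.1 and had an early change, 12 minus 10 DAS, between -1 and 0.5 on the log2(FPKM + 1) scale. FPKM counts fragments relative to the length of the transcript and to all mapped fragments of the library, so levels of different genes can be set side by side. From these candidates the 150 with the most negative late difference, 14 minus 12 DAS in A10.1, were taken. Late changes in A10.1 are therefore values that chose the genes and carry no test here, whereas the *spp1* libraries took no part in the choice and are tested below.

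Each RNA library came from a pool of 10 to 30 dissected inflorescences. For *spp1* the ages of 10, 12 and 14 DAS were covered by 4, 3 and 4 libraries, and the same numbers were made for A10.1. Whole inflorescences were sampled, so a fall can mean fewer cells of a type or less RNA per cell, which cannot be told apart here. The labels name no treatment and separate the groups by genotype and age.

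A grass inflorescence at these ages is passing from the laying down of branch meristems to the outgrowth of branches, spikelets and bristles. MADS-box, YABBY, KANADI and BEL1-like transcription factors are known as regulators of phase change and of the patterning of lateral organs. Laccases and O-methyltransferases belong to the phenylpropanoid pathway that makes lignin and related phenolics, expansins and pectin methylesterases modify the primary wall, and small lipid transfer proteins carry lipids, many of them at the epidermis. Chlorophyll-binding and photosystem proteins mark green tissue.

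In A10.1 the late difference of the 150 genes ran from -1.44 to -0.80, with a median of -0.94, and 53 of them fell by more than 2-fold on this scale. The libraries of 14 DAS were all below those of 12 DAS for 139 genes, against 8.56% of the genes tested, a share the choice itself sets. The genes covered a wide range of levels, with A10.1 means at 12 DAS between 5.18 and 2569 FPKM and a median of 23.4 FPKM. Of these, 36 genes were at or above 100 FPKM and 37 were under 10 FPKM. At the limit of the choice, Sevir.2G128300, Sevir.4G065800 and Sevir.2G259000 were the last genes inside, each at -0.80, and Sevir.2G029000, Sevir.1G106700 and Sevir.1G267000 were the next outside, also at -0.80 each. The limit thus separates genes with nearly the same value.

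Averaged over the 150 genes, the level in *spp1* was 5.63 to 5.75 at 10 DAS, 5.26 to 5.56 at 12 DAS, and 4.43 to 4.88 at 14 DAS, in log2(FPKM + 1) per library. In A10.1 it was 5.52 to 5.64, 5.10 to 5.25, and 4.02 to 4.27 at the same stages. Every *spp1* library of 14 DAS was thus below every *spp1* library of 12 DAS, and above every A10.1 library of 14 DAS. Low A10.1 values at 14 DAS helped to put genes on the list, so the comparison of the genotypes is a description.

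**Figure D1:**
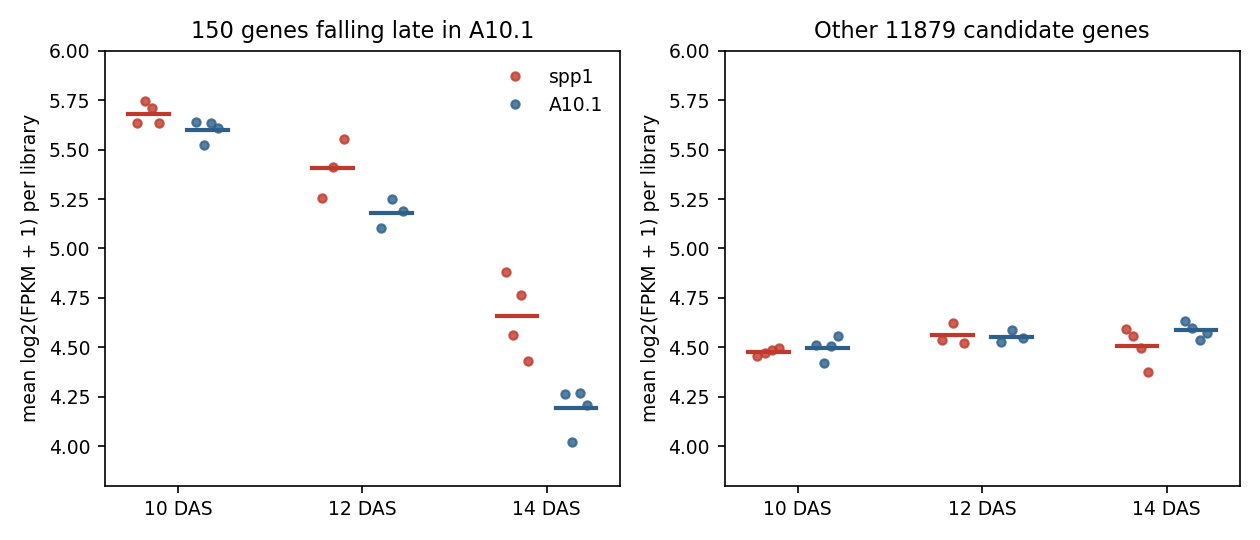
Mean log2(FPKM + 1) per library (points) and per group (bars) of the 150 genes on the left and of the other 11879 candidates on the right, by stage, with *spp1* left of A10.1. The 150 genes stand at 4.43 to 4.88 in *spp1* and 4.02 to 4.27 in A10.1 at 14 DAS, while the other candidates stay between 4.37 and 4.63 in every library.

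Mapped reads per library numbered 10.4 M to 24.3 M, counted on the first mate, or 86.69% to 93.22% of the reads. Replicate 4 of *spp1* at 14 DAS had the fewest reads and the lowest percent mapped, and also the lowest mean of the 150 genes among the *spp1* libraries, 4.43, and of the other candidates, 4.37. The summed FPKM of 29 photosynthesis genes, the list used for leaf tissue, was 3023 to 5191 in *spp1* at 14 DAS against 5157 to 6376 in *spp1* at 12 DAS, and 2407 to 3099 in A10.1 at 14 DAS against 4114 to 5562 in A10.1 at 12 DAS. All 29 passed the filter on low values, and 10 of them are among the 150. The list used for meristem tissue was split. It holds 5 genes found by the word knotted in at least 1 of the descriptions of the gene or its matches in other species, and 1 of them, the BEL1-like gene Sevir.9G138200, is among the 150 and was found as a knotted interacting protein. Late in *spp1*, 3 of the 5 had positive and 2 negative estimates, Sevir.9G138200 being 1 of the 2, and 0 passed. As a sum, to which Sevir.2G029800 gave the most with a mean of 129.5 FPKM in *spp1* at 12 DAS, the list was at 285 to 369 FPKM in *spp1* at 14 DAS against 221 to 315 FPKM at 12 DAS, and at 415 to 493 FPKM in A10.1 at 14 DAS against 279 to 369 FPKM at 12 DAS. The part of tissue make-up in the results below was not tested.

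Nearly all of the 150 genes had lower levels late in *spp1* too, and a part of them passed the test. Of the 150, all of which passed the filter on low values, 39 fell (26%) and 0 rose between 12 and 14 DAS at an adjusted p of 0.05 (limma, Benjamini-Hochberg over 17902 genes). Over all genes tested, 0.877% fell and 0.676% rose. At an unadjusted p of 0.05, 116 were lower (77.33%, against 7.83% of all genes) and 0 were higher. The estimate was negative for 148 (98.67%, against 63.1%), and for 97 the *spp1* libraries of 14 DAS all lay below those of 12 DAS (64.67%, against 7.03%).

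The median *spp1* change of the 150 genes was -0.73 on the log2 scale, with the middle 50% between -0.94 and -0.54 and a typical SE of 0.22. The median over all genes tested was -0.05, and over the 12029 candidates it was also -0.05. The 39 made up 24.84% of the 157 genes that fell over the whole table. They changed by -1.62 to -0.57, 21 of them by more than 2-fold, and in all 39 the libraries of the stages did not overlap. Of the 39 genes, 10 passed in every fit that left out 1 of the 11 libraries, and the fewest such fits passed by any of them was 2.

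The number that passed depended on single libraries. It was 10 without replicate 4 of *spp1* at 12 DAS, 11 without replicate 2 of *spp1* at 12 DAS, and 19 without replicate 3 of *spp1* at 14 DAS, while 142 to 149 of the 150 estimates stayed negative in these and the other left-out fits. Without replicate 4 of *spp1* at 14 DAS 35 passed, and the median was -0.66. The number was 19 when genes with low values were also tested, and 65 when all 22 libraries entered 1 fit.

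The change was smaller in *spp1* than in A10.1 for 123 genes and larger for 27. Since A10.1 values picked the genes for large falls there, this is a description and not a test of the genotype. Across the 150 genes the late changes of the genotypes had a Pearson correlation of 0.39, a description over genes that share their libraries.

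**Figure D2:**
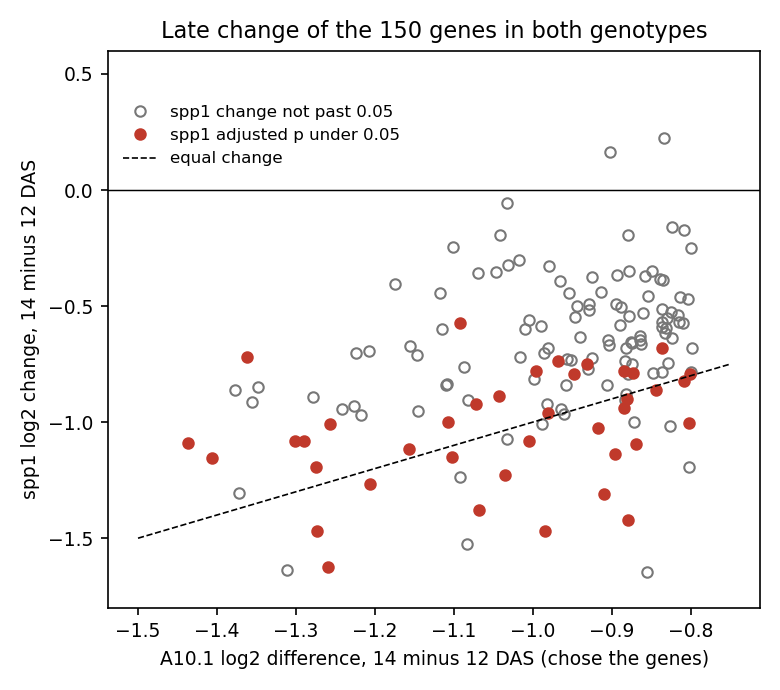
Late change of each of the 150 genes in *spp1* (vertical) against A10.1 (horizontal), both 14 minus 12 DAS in log2(FPKM + 1). Filled points are the 39 genes that passed the test in *spp1*, open points the other 111, and the dashed line marks equal change. All but 2 points lie below 0 in *spp1*.

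Of the 150 genes, 96 were covered by the deposited tables that hold descriptions. These cover 2952 genes, those listed as called between the genotypes at any stage, among them 2732 of the 17902 genes tested. The groups below were matched by words in these descriptions, so the other genes of a group are also drawn from those tables. The calls between genotypes used *spp1* values. Group counts and medians in *spp1* are therefore a description, not independent of which genes could enter a group. In all, 57 genes fell into at least 1 group.

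Transcription factors were led by Sevir.9G518400, a MADS-box gene whose best Arabidopsis match is SVP, a repressor of flowering in that species. It had the most negative late difference of the 150 genes in A10.1, -1.44. Its level was 77.1, 51.4, 67.6 and 72.3 FPKM in *spp1* at 14 DAS, against 119, 131 and 184 FPKM in *spp1* at 12 DAS. The A10.1 libraries were at 35.3, 33.2, 53.6 and 45.6 FPKM at 14 DAS, against 105, 121 and 119 FPKM at 12 DAS. The stages did not overlap in either genotype, and at 14 DAS 3 of the 4 A10.1 libraries were below every *spp1* library. In *spp1* the gene fell by 1.09 ± 0.17 (SE) on the log2 scale (adjusted p = 0.00888), and it passed in every left-out fit.

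Of the 12 transcription factors among the 150, 4 fell in *spp1*, and the median change was -0.66. Among the 255 other transcription factors tested, 7 fell and 23 rose. Sevir.9G558600, a homeodomain-like gene, was at 10.2, 9.50, 10.98 and 9.34 FPKM in *spp1* at 14 DAS, against 16.5, 18.3 and 19.5 FPKM at 12 DAS, and changed by -0.79 ± 0.09 (SE) (adjusted p = 0.00318). Sevir.3G292000, a bHLH61-like gene, was at 15.02, 15.99, 17.4 and 15.8 FPKM in *spp1* at 14 DAS and varied more at 12 DAS, with 31.1, 58.7 and 44.3 FPKM. It changed by -1.38 ± 0.27 (SE) (adjusted p = 0.032). Sevir.9G558600 and Sevir.3G292000 are named because they passed the test, a choice made after their values were seen.

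Sevir.6G239700, whose Arabidopsis match is MYC2, a regulator of jasmonate responses there, had an A10.1 difference of -1.36. It was at 13.7, 7.50, 14.5 and 10.9 FPKM in *spp1* at 14 DAS, against 22.9, 19.4 and 24.6 FPKM at 12 DAS, without overlap, and the change of -0.91 ± 0.22 (SE) did not pass (adjusted p = 0.0667). The heat stress factor gene Sevir.9G396100 had a change of -0.60 ± 0.15 (SE) and did not pass either (adjusted p = 0.0808). Its A10.1 libraries were at 26.4, 18.98, 28.4 and 25.1 FPKM at 14 DAS, against 46.8, 49.3 and 56.3 FPKM at 12 DAS.

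Organ patterning genes were a group put together after the descriptions of the 150 genes had been seen, and 1 of its 4 members fell. This was Sevir.1G255800, a YABBY gene of the family that marks the polarity of lateral organs. It was at 119, 109, 125 and 163 FPKM in *spp1* at 14 DAS, against 213, 243 and 262 FPKM at 12 DAS. In A10.1 the values were 117, 95.4, 106 and 104 FPKM at 14 DAS, against 234, 159 and 194 FPKM at 12 DAS. All libraries of 14 DAS were below those of 12 DAS in both genotypes, and the *spp1* change was -0.90 ± 0.17 (SE) (adjusted p = 0.0259).

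The other 3 patterning genes had negative estimates that did not pass. The ovate family gene Sevir.5G010900, of a family known to restrain growth, had an estimate of -0.95 ± 0.26 (SE) in *spp1* (adjusted p = 0.109). The BEL1-like gene Sevir.9G138200, of a family whose proteins pair with knotted-type proteins, was at 38.99, 26.5, 57.1 and 63.7 FPKM in *spp1* at 14 DAS, against 72.3, 56.5 and 77.4 FPKM at 12 DAS, and the stages overlapped. Its change was -0.62 ± 0.26 (SE) (adjusted p = 0.38). Sevir.6G158800, with a best match to Arabidopsis KAN1, which gives organs their lower-side identity, had an estimate of -0.59 ± 0.24 (SE) (adjusted p = 0.333). Among the 9 other genes of this group 0 fell, with 4 negative estimates.

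**Figure D3:**
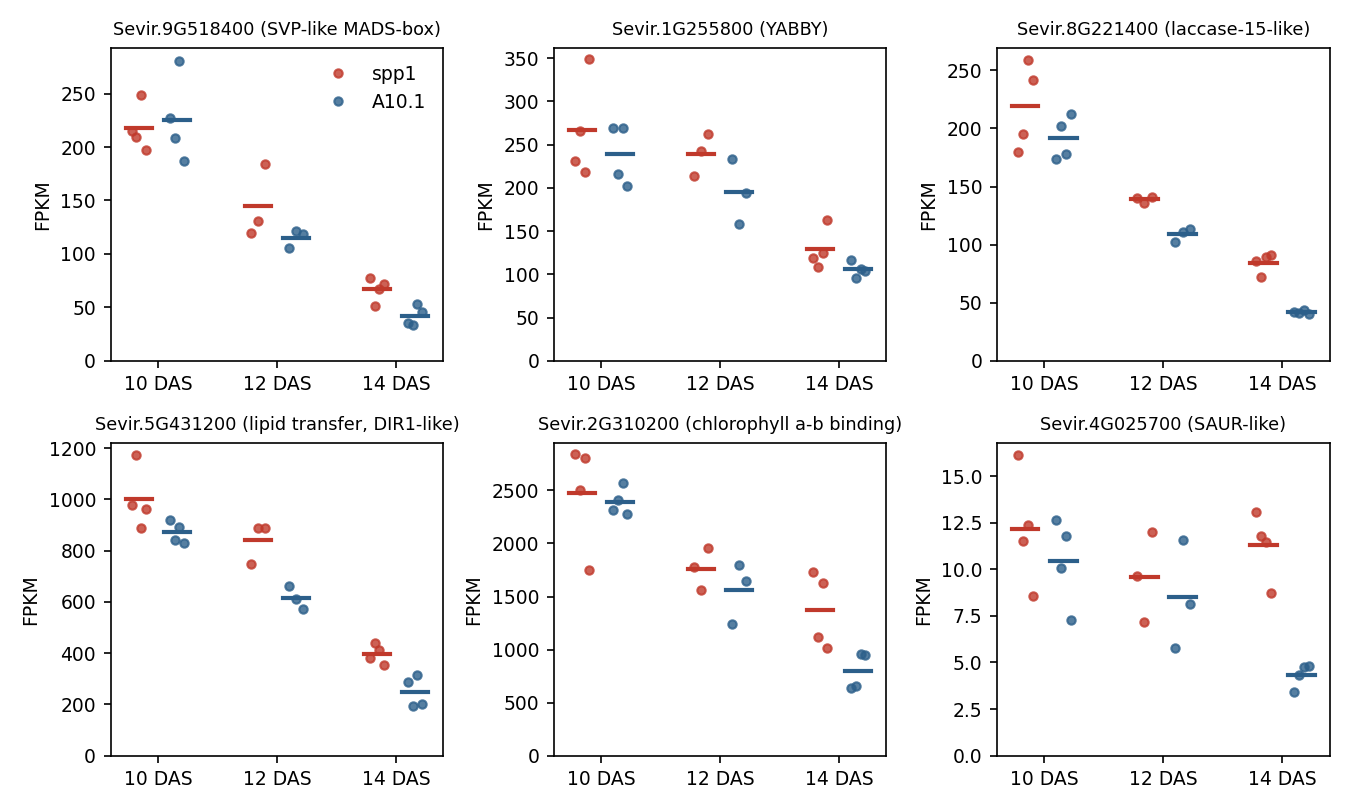
FPKM in each library (points) and group mean (bars) of 6 of the 150 genes at 10, 12 and 14 DAS, with *spp1* left of A10.1 at each stage. The vertical axes start at 0 and differ between genes. The MADS-box, YABBY, laccase and lipid transfer genes fell in *spp1* as well, and the chlorophyll-binding gene overlapped between stages in *spp1*. The SAUR-like gene Sevir.4G025700 was at 13.1, 11.8, 11.5 and 8.73 FPKM in *spp1* at 14 DAS, against 3.40, 4.33, 4.78 and 4.81 FPKM in A10.1.

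Genes of phenylpropanoid metabolism were a further group put together after the descriptions were seen. Of its 9 members among the 150, 7 fell in *spp1*, with a median of -0.91, and of the 17 other genes of the group 2 fell, with a median of -0.54. The 7 genes passed in 2 to 9 of the 11 left-out fits, depending on the gene. The laccases Sevir.8G220400, Sevir.8G221400 and Sevir.8G222700, enzymes that oxidise lignin precursors, count here and among the cell wall genes. These laccases and the O-methyltransferases Sevir.8G211600 and Sevir.8G211900, all among the 7, lie in an interval of chromosome 8 described below.

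Sevir.8G221400, annotated as laccase-15-like, had close replicates at 12 and 14 DAS. In *spp1* it was at 180.0, 195, 259 and 242 FPKM at 10 DAS, 140.4, 136 and 141 FPKM at 12 DAS, and 86.2, 71.7, 89.6 and 90.7 FPKM at 14 DAS. In A10.1 it was at 174, 202, 178 and 212 FPKM at 10 DAS, 102, 111 and 114 FPKM at 12 DAS, and 42.1, 41.3, 43.9 and 39.9 FPKM at 14 DAS. The stages of a genotype did not overlap, and at 12 and 14 DAS each *spp1* library was above each A10.1 library. The late change in *spp1* was -0.72 ± 0.13 (SE) (adjusted p = 0.0209), while the A10.1 difference was -1.36.

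Sevir.8G222700, also laccase-15-like, was at 75.3, 62.2, 60.02 and 52.5 FPKM in *spp1* at 14 DAS, against 104, 109 and 109 FPKM at 12 DAS, and changed by -0.78 ± 0.12 (SE) (adjusted p = 0.00966). Sevir.8G220400, which matches Arabidopsis laccase 11, was much lower. It was at 4.33, 2, 3.16 and 2.21 FPKM in *spp1* at 14 DAS, against 5.85, 7.26 and 9.87 FPKM at 12 DAS, and its change of -1.15 ± 0.25 (SE) passed narrowly (adjusted p = 0.0475), in 2 of the 11 left-out fits.

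Enzymes of other steps of the pathway were also in the set. Sevir.3G295500 matches cinnamate-4-hydroxylase, an early enzyme of the pathway. It was at 65.2, 57.5, 59.9 and 52.4 FPKM in *spp1* at 14 DAS, against 75.7, 107 and 104 FPKM at 12 DAS, with a change of -0.68 ± 0.14 (SE) (adjusted p = 0.0358). Sevir.8G149000, of the chalcone synthase family that opens the branch to flavonoids, had 6.32, 5.15, 3.61 and 2.63 FPKM in *spp1* at 14 DAS, against 9.61, 14.6 and 12.2 FPKM at 12 DAS, and changed by -1.31 ± 0.23 (SE) (adjusted p = 0.0184).

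The O-methyltransferases, which add methyl groups to phenolic rings, numbered 4, and 3 of them are described as probably inactive. Of these 3, Sevir.8G211600 changed by -0.999 ± 0.18 (SE) (adjusted p = 0.0187) and Sevir.8G211900 by -1.47 ± 0.28 (SE) (adjusted p = 0.0259). The most abundant, Sevir.8G220700, was at 356, 331, 197 and 171 FPKM in *spp1* at 14 DAS, against 427, 510.0 and 481 FPKM at 12 DAS, without overlap, and did not pass (-0.91 ± 0.22 (SE), adjusted p = 0.0691). The ZRP4-like gene Sevir.3G182900 was at 18.9, 9.67, 9.36 and 8.02 FPKM in *spp1* at 14 DAS, against 19.3, 21.5 and 20.4 FPKM at 12 DAS. At 14 DAS 1 library stood near the level of 12 DAS, and the gene did not pass (-0.85 ± 0.24 (SE), adjusted p = 0.118). Genes of near-identical copies can share reads, so values of single members of these families are uncertain.

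Sevir.5G154000, annotated as an S-adenosylmethionine synthase, makes the methyl donor used by such methyltransferases and was among the genes with the lowest adjusted p. It was at 377, 379, 315 and 334 FPKM in *spp1* at 14 DAS, against 671, 872 and 749 FPKM at 12 DAS. The A10.1 libraries were at 293, 218, 274 and 246 FPKM at 14 DAS, against 564, 663 and 501 FPKM at 12 DAS. The *spp1* change was -1.12 ± 0.12 (SE) (adjusted p = 0.00257), and it passed in every left-out fit. Sevir.5G154000, like Sevir.3G295500, Sevir.8G149000 and the O-methyltransferases that passed, is described here for its test or its group after its values were seen.

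Among the 9 cell wall genes 6 fell, with a median of -0.78, and of the 82 other cell wall genes tested 5 fell and 1 rose. Besides the laccases, these were expansins, which loosen the wall, and a pectin methylesterase, which changes the charge of pectin. The expansin Sevir.3G209800 was at 39.7, 31.2, 39.2 and 29.1 FPKM in *spp1* at 14 DAS, against 61.8, 55.05 and 75.4 FPKM at 12 DAS, and changed by -0.86 ± 0.16 (SE) (adjusted p = 0.0253). The expansin Sevir.5G368500, picked after its values were seen, had the larger change, -1.42 ± 0.31 (SE) (adjusted p = 0.0478), and the wider spread, with 29.6, 46.04, 18.5 and 18.5 FPKM at 14 DAS against 69.2, 81.1 and 65.95 FPKM at 12 DAS in *spp1*. This expansin passed in 2 of the 11 left-out fits.

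The pectin methylesterase gene Sevir.5G021100 was at 35.6, 33.2, 36.5 and 26.6 FPKM in *spp1* at 14 DAS, against 45.9, 61.4 and 65.5 FPKM at 12 DAS, and at 25.8, 19.8, 22.8 and 21.6 FPKM in A10.1 at 14 DAS, against 42.6, 50.4 and 44.7 FPKM at 12 DAS. The stages did not overlap in either genotype. It changed by -0.78 ± 0.14 (SE) in *spp1* (adjusted p = 0.0227).

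Lipid and cuticle genes numbered 10, of which 3 fell in *spp1*, with a median of -0.87. Of the 80 other genes of that group 3 fell and 2 rose. Genes whose descriptions hold the name of the lipid transfer family, some only through a superfamily name, made up 6 of the 10, and 2 of these fell. This group was formed after the descriptions were seen. The leading gene was Sevir.5G431200, similar to DIR1, which is needed in Arabidopsis for systemic resistance. In *spp1* it was at 383, 440.0, 413 and 353 FPKM at 14 DAS, against 748, 888 and 889 FPKM at 12 DAS. In A10.1 it was at 288, 192, 316 and 200.0 FPKM at 14 DAS, against 662, 610.2 and 574 FPKM at 12 DAS. The stages were far apart in both genotypes, the *spp1* libraries of either stage were above those of A10.1, and the *spp1* change was -1.08 ± 0.12 (SE) (adjusted p = 0.00257).

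Its neighbour by identifier, Sevir.5G431100, has no description in the tables used. It was at 2.70, 4.61, 3.90 and 1.87 FPKM in *spp1* at 14 DAS, against 6.56, 8.68 and 8.14 FPKM at 12 DAS, and changed by -1.08 ± 0.23 (SE) (adjusted p = 0.0444). It passed in 3 of the 11 left-out fits. The other abundant genes of the lipid transfer family group did not pass. Sevir.9G333700 had an estimate of -0.94 ± 0.27 (SE) (adjusted p = 0.137), with replicate 4 of *spp1* at 14 DAS at 137 FPKM and the other 3 at 278 to 349 FPKM. Sevir.8G012600 had an estimate of -0.84 ± 0.19 (SE) (adjusted p = 0.059). Sevir.1G267400, described as a proline-rich protein and matched by its superfamily name, had an estimate of -0.35 ± 0.21 (SE) (adjusted p = 0.613).

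Photosynthesis genes were lower on average late in *spp1* but did not pass. All 10 members had negative estimates in *spp1*, 0 passed at the adjusted threshold and 6 were under an unadjusted p of 0.05 (limma). Their changes ran from -0.57 to -0.37 with a median of -0.48, and the 19 other photosynthesis genes had the same median of -0.48, 17 negative estimates and 0 that passed. In A10.1 the median difference of the 10 was -0.86. This list stands for green tissue, and its sums per library are given above.

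The chlorophyll-binding gene Sevir.2G310200 was the most abundant of them. In *spp1* it was at 1731, 1120.1, 1631 and 1013 FPKM at 14 DAS, against 1775, 1558 and 1957 FPKM at 12 DAS, so that the stages overlapped. The A10.1 libraries were at 637, 653, 960.4 and 946 FPKM at 14 DAS, against 1239.7, 1800.4 and 1643 FPKM at 12 DAS. The *spp1* change was -0.39 ± 0.21 (SE) (adjusted p = 0.562). Sevir.2G362400, which codes for the antenna protein CP29, had an estimate of -0.55 ± 0.21 (SE), Sevir.2G353200, a subunit of the oxygen-evolving complex, -0.54 ± 0.24 (SE), and Sevir.2G035800, photosystem I subunit K, -0.57 ± 0.22 (SE).

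**Figure D4:**
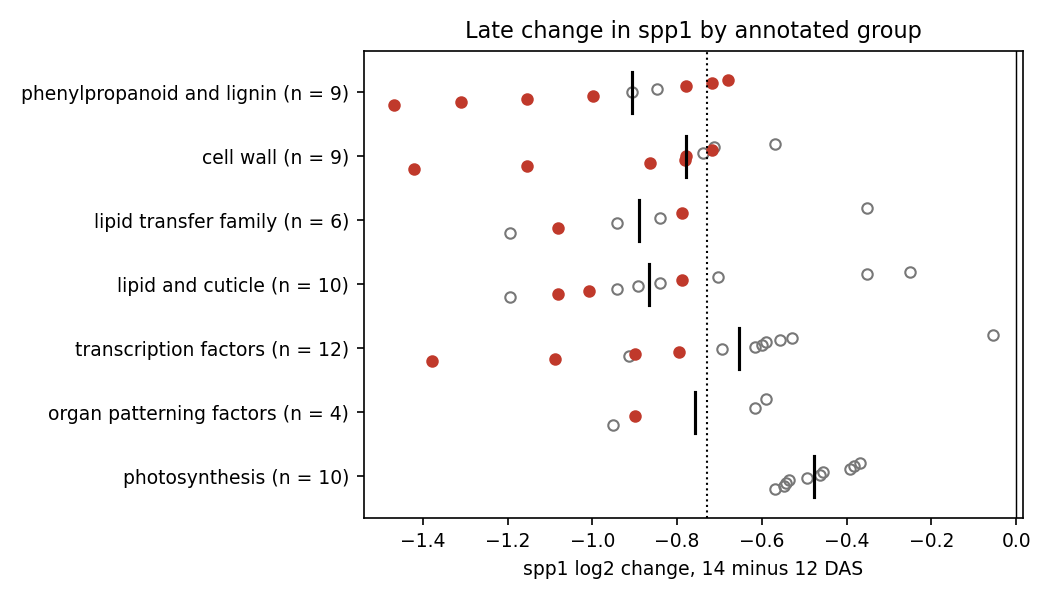
Change in *spp1*, 14 minus 12 DAS in log2(FPKM + 1), of the genes in 7 annotated groups. Filled points passed the test at an adjusted p of 0.05, open points did not, short vertical bars mark group medians, and the dotted line marks the median of all 150 genes, -0.73. The phenylpropanoid group has 7 of 9 filled points and the photosynthesis group 0 of 10, and a gene can stand in more than 1 group.

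Smaller groups held 1 to 3 genes each. Of 3 stress protection genes, Sevir.3G179600, coding for the chaperone HSP101 that frees aggregated proteins, fell in *spp1*, with 7.24, 8.90, 6.61 and 6.67 FPKM at 14 DAS against 12.6, 20.8 and 19.6 FPKM at 12 DAS and a change of -1.14 ± 0.21 (SE) (adjusted p = 0.0235). The glyoxalase family gene Sevir.3G104900 had an estimate of -0.66 ± 0.23 (SE) and did not pass (adjusted p = 0.24). The other hormone group held the GAST1-like genes Sevir.3G236800 and Sevir.3G269700, of a family induced by gibberellin, and 0 passed. Sevir.3G236800 was at 16.4, 31.9, 27.7 and 36.8 FPKM in *spp1* at 14 DAS, against 47.8, 50.8 and 51.4 FPKM at 12 DAS, without overlap (-0.86 ± 0.33 (SE), adjusted p = 0.299). Its A10.1 stages did overlap, with 12.7, 9.08, 18.25 and 6.33 FPKM at 14 DAS against 53.1, 17.4 and 24.5 FPKM at 12 DAS. Sevir.3G269700 had an estimate of -0.73 ± 0.17 (SE) in *spp1* (adjusted p = 0.0658).

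The transporter genes were the aquaporin Sevir.2G128300 (-0.78 ± 0.19 (SE), adjusted p = 0.0672) and the purine permease Sevir.9G516700 (-0.72 ± 0.30 (SE), adjusted p = 0.36), and 0 of the 2 passed. The carbohydrate genes were Sevir.1G266500, a trehalose-phosphate phosphatase (-0.72 ± 0.16 (SE), adjusted p = 0.0548), and the glycosyltransferase Sevir.3G389600 (-0.70 ± 0.36 (SE), adjusted p = 0.514). The word kinase found only Sevir.9G469000, a phosphoenolpyruvate carboxykinase of gluconeogenesis and no protein kinase (-0.36 ± 0.23 (SE), adjusted p = 0.66). Of the auxin pathway list of 85 genes, 37 were candidates and 0 were among the 150. Of its 68 genes tested, 0 fell and 3 rose late in *spp1*. The cell division and chromatin group and the translation group, with 58 candidates each, also had 0 members. Of all candidates 1.25% were among the 150, so counts of 0 in groups of this size are near that share.

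Several of the most negative *spp1* estimates belonged to genes whose *spp1* libraries of 14 DAS were spread out. Sevir.6G139800, without a description, had the lowest, -1.64 ± 0.61 (SE), and did not pass (adjusted p = 0.28). Its libraries were at 490.4, 269, 184 and 43.3 FPKM in *spp1* at 14 DAS, against 393, 851 and 544 FPKM at 12 DAS. Its close neighbour by identifier, Sevir.6G140000, was among the most abundant genes. It was at 2009, 1067, 1211 and 396 FPKM in *spp1* at 14 DAS, against 2311, 3114 and 3399.5 FPKM at 12 DAS, and did not pass (-1.53 ± 0.46 (SE), adjusted p = 0.152). In both, replicate 4 of *spp1* at 14 DAS was the lowest library and replicate 1 the highest.

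The same library was lowest for Sevir.2G133400, an enzyme of the family that builds long isoprenoid chains, with 35.3, 38.2, 22.9 and 8.39 FPKM in *spp1* at 14 DAS against 63.05, 93.2 and 66.2 FPKM at 12 DAS (-1.64 ± 0.39 (SE), adjusted p = 0.0677). Sevir.1G341300, coding for nitrate reductase, the entry enzyme of nitrate assimilation, did pass. It was at 9.05, 12.1, 5.51 and 3.57 FPKM in *spp1* at 14 DAS, against 16.7, 24.96 and 30.5 FPKM at 12 DAS, and at 7.24, 10.06, 4.57 and 4.19 FPKM in A10.1 at 14 DAS, against 16.4, 21.5 and 13.1 FPKM at 12 DAS. The *spp1* change was -1.62 ± 0.33 (SE) (adjusted p = 0.0353). Sevir.J016700, without a description, fell as well, with 3.29, 3.29, 2.14 and 0.66 FPKM at 14 DAS against 7.31, 10.8 and 5.61 FPKM at 12 DAS in *spp1* (-1.47 ± 0.31 (SE), adjusted p = 0.0393). This last gene passed in 4 of the 11 left-out fits.

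Of the 39 genes that fell, 11 were not covered by the deposited descriptions. Sevir.5G105700 is 1 of the genes that fell without a description. It was at 28.4, 32.2, 36.1 and 25.98 FPKM in *spp1* at 14 DAS, against 69.6, 68.2 and 75.2 FPKM at 12 DAS, and changed by -1.19 ± 0.15 (SE) (adjusted p = 0.00342). Sevir.7G068200 had the highest level of the undescribed genes that fell. It was at 414, 437, 408 and 202 FPKM in *spp1* at 14 DAS, against 797, 838 and 825 FPKM at 12 DAS (-1.23 ± 0.23 (SE), adjusted p = 0.0229). Both were picked after their values were seen. Sevir.5G312800, also without a description, ranked high in A10.1 and did not pass in *spp1* (-1.31 ± 0.30 (SE), adjusted p = 0.057). Of the most abundant genes of all, the hydroxyproline-rich glycoprotein gene Sevir.9G421700 was at 2249, 1859, 2363 and 2298 FPKM in *spp1* at 14 DAS, against 3034, 2785 and 3608 FPKM at 12 DAS, without overlap (-0.52 ± 0.13 (SE), adjusted p = 0.083). The undescribed Sevir.8G262000 had an estimate of -0.45 ± 0.21 (SE) (adjusted p = 0.47).

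At the other end, 5 genes had the highest estimates in *spp1*, and none of them passed in either direction. Sevir.4G025700, of the SAUR family of auxin-responsive genes, was at 13.1, 11.8, 11.5 and 8.73 FPKM in *spp1* at 14 DAS, against 9.62, 7.19 and 12 FPKM at 12 DAS, with a change of 0.22 ± 0.21 (SE) (adjusted p = 0.809). In A10.1 it was at 3.40, 4.33, 4.78 and 4.81 FPKM at 14 DAS, against 5.78, 11.6 and 8.16 FPKM at 12 DAS. At 14 DAS each *spp1* library was above each A10.1 library. A second gene with a SAUR-like description, Sevir.2G225300, picked after its values were seen, was lower late in *spp1*. It was at 18.9, 19.4, 16.9 and 16.7 FPKM in *spp1* at 14 DAS, against 26.8, 27.1 and 32.3 FPKM at 12 DAS, without overlap. Its change of -0.65 ± 0.18 (SE) did not pass (adjusted p = 0.111). Neither SAUR-like gene is on the auxin pathway list used here.

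Sevir.5G053200, without a description, was the other gene with a positive estimate, 0.16 ± 0.37 (SE) (adjusted p = 0.929), which turned negative without replicate 2 of *spp1* at 12 DAS or replicate 4 at 14 DAS. Sevir.4G246900 is similar to the GATA factor GATA22, which promotes chloroplast development in Arabidopsis. It was at 4.99, 1.44, 5.63 and 7.12 FPKM in *spp1* at 14 DAS, against 3.30, 4.09 and 6.62 FPKM at 12 DAS (-0.06 ± 0.40 (SE), adjusted p = 0.979), and its sign turned with median-ratio scaling and without replicate 2 at 14 DAS or replicate 4 at 12 DAS. Sevir.7G276000, an asparaginase-like enzyme, was at 146, 169.9, 177 and 270.1 FPKM in *spp1* at 14 DAS, against 169, 202 and 259.8 FPKM at 12 DAS (-0.16 ± 0.24 (SE), adjusted p = 0.889). Its sign too turned without replicate 4 at 12 DAS. Sevir.9G240300, of a family with a metal-binding domain, had an estimate of -0.17 ± 0.15 (SE) (adjusted p = 0.796).

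The early interval, 10 to 12 DAS, also gave mostly negative estimates. The rule had allowed a change between -1 and 0.5 in A10.1, and the A10.1 values had a median of -0.50. In *spp1*, 5 of the 150 genes fell between 10 and 12 DAS (3.33%, against 1.42% of the genes tested) and 0 rose (against 1.12%). The estimate was negative for 120 genes (80%, against 35.9%), with a median of -0.30 beside 0.09 over all genes. At an unadjusted p of 0.05, 36 were lower (24%, against 7.49%) and 2 were higher. The count of 5 was 1 without replicate 1 of *spp1* at 12 DAS, 2 without replicate 2 at 12 DAS, replicate 2 or 3 at 10 DAS, or replicate 3 at 14 DAS, 3 without replicate 1 or 4 at 10 DAS, and 11 without replicate 4 at 14 DAS, all of *spp1*.

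The early change ranged widely among the genes. The A10.1 early change was at or above 0 for 21 genes, between -0.5 and 0 for 54, and under -0.5 for 75. The *spp1* early medians of these classes were 0.16, -0.15 and -0.47, and the *spp1* late medians were -0.65, -0.69 and -0.75. All 5 genes that fell early in *spp1* were in the last class, as were 24 of the 39 that fell late. Across the 150 genes the early changes of the genotypes had a Pearson correlation of 0.82, again a description.

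**Figure D5:**
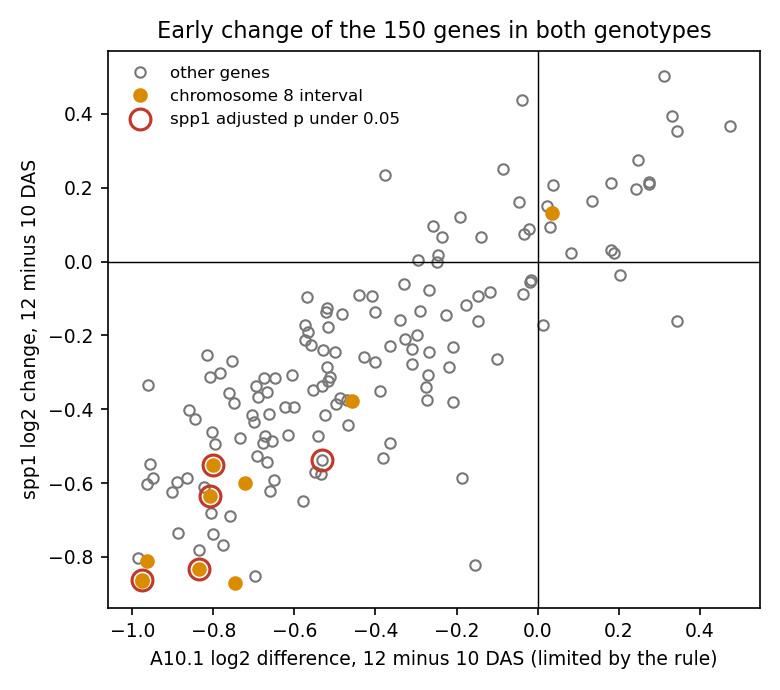
Early change of each of the 150 genes in *spp1* (vertical) against A10.1 (horizontal), both 12 minus 10 DAS in log2(FPKM + 1). Filled orange points are the 10 genes of an interval of chromosome 8, and rings mark the 5 genes that fell in *spp1*, 4 of them in that interval.

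The 5 early genes were Sevir.8G221200, Sevir.8G221400, Sevir.8G211600, Sevir.8G222700 and Sevir.4G065800, and all but Sevir.4G065800 fell in the late interval too. Among all genes tested 41 fell in both intervals. Sevir.8G221200, annotated as uncharacterized and picked after its values were seen, had the lowest early adjusted p. In *spp1* it was at 58, 50.6, 45.96 and 54.2 FPKM at 10 DAS, 26.3, 29.5 and 28.7 FPKM at 12 DAS, and 16.6, 16.4, 12.4 and 14.02 FPKM at 14 DAS. The A10.1 libraries were at 48.1, 40.95, 38.1 and 38.5 FPKM at 10 DAS, 22.9, 21.8 and 17.1 FPKM at 12 DAS, and 8.87, 11.3, 10.4 and 7.30 FPKM at 14 DAS. The stages did not overlap, and the *spp1* changes were -0.86 ± 0.12 (SE) early (adjusted p = 0.00396) and -0.89 ± 0.12 (SE) late (adjusted p = 0.00381). Sevir.4G065800, a GDSL lipase gene, was at 38.6, 54.4, 47.3 and 51.4 FPKM at 10 DAS, 32.5, 31.2 and 33.8 FPKM at 12 DAS, and 29.97, 23.1, 29.9 and 26.1 FPKM at 14 DAS in *spp1*, with -0.54 ± 0.13 (SE) early (adjusted p = 0.0496) and -0.25 ± 0.13 (SE) late (adjusted p = 0.508).

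By their identifiers, which follow the order of genes on a chromosome, 15 of the 150 genes were on chromosome 8, out of 495 candidates there (3.03%, beside 1.25% of all candidates). Of these, 10 lay between the identifiers Sevir.8G200000 and Sevir.8G229900, where there were 55 candidates (18.2%). This interval was picked after the positions were seen, its genes are named for their place in it after their values were seen, and the numbers are a description. The 10 genes include the 3 laccases, 3 of the O-methyltransferases, Sevir.8G221200, the decarboxylase-like Sevir.8G219500 and the undescribed Sevir.8G204900 and Sevir.8G222800. In *spp1*, 7 of the 10 fell late, against 0.877% of all genes tested, and 4 fell early, against 1.42%. Their medians were -0.92 late and -0.72 early. These 10 are on the list because they fell late in A10.1, so the shares do not measure the interval. The other 45 candidates of the interval had a median *spp1* late change of -0.05.

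The most abundant gene of the interval was Sevir.8G219500, similar to aromatic amino acid decarboxylases. It was at 1441, 1442, 1458 and 1636 FPKM at 10 DAS, 1084, 1238 and 1129 FPKM at 12 DAS, and 918, 734, 752 and 518 FPKM at 14 DAS in *spp1*. Its libraries were lower at each step without overlap, and neither its late change (-0.68 ± 0.15 (SE), adjusted p = 0.055) nor its early change (-0.38 ± 0.15 (SE), adjusted p = 0.213) passed. Outside the interval, 5 pairs of the 150 genes had adjacent identifiers, and those named here were picked after their values were seen. Among them were Sevir.5G431100 with Sevir.5G431200, and Sevir.5G448500, similar to the flowering-promoting factor FPF1 of Arabidopsis, with the undescribed Sevir.5G448600. Both genes of the last pair fell late in *spp1*, Sevir.5G448500 by 0.74 ± 0.15 (SE) (adjusted p = 0.0393) and Sevir.5G448600 by 0.79 ± 0.16 (SE) (adjusted p = 0.0358). Each passed in 4 of the 11 left-out fits.

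Set against A10.1 at the same stage, most of the 150 genes had higher means in *spp1*. The median difference, *spp1* minus A10.1 on the log2 scale, was 0.11 at 10 DAS, 0.22 at 12 DAS, and 0.47 at 14 DAS, beside -0.02, -0.00 and -0.09 over all genes. The group mean was higher in *spp1* for 104, 125 and 142 of the 150 genes at these stages. All *spp1* libraries were above all A10.1 libraries for 1 of the 150 genes at 10 DAS (0.67%, against 1.27% of all genes). This held for 43 at 12 DAS (28.67%, against 7.54%) and 40 at 14 DAS (26.67%, against 4.06%). All *spp1* libraries were below all A10.1 libraries for 0 of the 150 at each stage, against 1.4%, 5.39% and 9.94% of all genes. High A10.1 values at 12 DAS and low ones at 14 DAS put genes on the list, and the limit on the early change also used A10.1 at 10 DAS. The differences at each stage and the steps between them thus use values that chose the genes, and no test or trend is read from them.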

How the data were processed

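RNA was sequenced from pooled inflorescences of *spp1* and A10.1 at 10, 12 and 14 DAS. Per the methods of the study, the authors trimmed 100-bp paired reads with Trimmomatic, mapped them to version 1 of the S. viridis genome with tophat2 and Bowtie2, and deposited FPKM values per primary transcript. Whether strand was used in the assignment of reads is not given in the sources used here. The authors also deposited the number and the percent of reads mapped per library. Their tables of genes called between the genotypes hold group means, fold changes and q-values, none of which was used, and gene descriptions, which were. FPKM values carry no counts, so precision comes from the spread between libraries.

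Values were analysed as log2(FPKM + 1), so changes of genes with low levels are understated. The *spp1* libraries were fitted alone (limma 3.58.1 in R 4.3.3, empirical Bayes with a trend on mean expression, stage as the only term). The genes tested averaged 1 FPKM or more over the 11 *spp1* libraries, with Benjamini-Hochberg adjustment over all 17902 and a threshold of 0.05. The study's own tool, cuffdiff, needs reads and was not rerun. More than 2-fold means a difference beyond 1 on this log2 scale. The procedure was tested on simulated data. Tables and figures were made with Python 3.11.15, pandas 2.3.3 and matplotlib 3.10.9.

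Named genes were the 10 most negative in A10.1, the 5 lowest and 5 highest in *spp1*, the 3 most abundant, the 3 on each side of the limit, any on the auxin list of the study, and up to 4 per group by level. Genes named otherwise are marked as chosen later. The definition leaves out 5 genes, which are not reported here. The genes, the lists and the tests were chosen with earlier results of these data known. Alternatives were a pseudocount of 0.1, a minimum mean of 5 FPKM or no minimum, median-ratio scaling, only the libraries of the stages compared, all 22 libraries in 1 fit, a block for the replicate number, and fits that each left out 1 library. Sequences were not used here, since the reference table matched none of the gene identifiers.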

Additional observations from a re-analysis of the deposited data

Results flagged for a closer look

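Among 260 groups of 4 libraries, those of 63 of the genes named in the text and of 2 measures over many genes, 12 held a library far from the other 3 (4.62%). By chance about 1 group in 20 is flagged. In *spp1* at 14 DAS, replicate 4 was the lowest library for Sevir.7G068200, with 202 FPKM against 408 to 437 FPKM in the other 3, and for the O-methyltransferase gene Sevir.8G211900, with 9.67 FPKM against 18.6 to 19.4 FPKM. Replicate 1 of the same group was the highest for the ZRP4-like gene Sevir.3G182900, with 18.9 FPKM against 8.02 to 9.67 FPKM, and for Sevir.8G222800, with 4.35 FPKM against 1.73 to 2.02 FPKM. Replicate 2 had 26.2 FPKM of the heat stress factor gene Sevir.9G396100, and the other 3 had 39.1 to 39.4 FPKM.

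In *spp1* at 10 DAS, replicate 3 had 3030 FPKM of Sevir.8G262000, and the other 3 had 2248 to 2354 FPKM. It also had 73.6 FPKM of the O-methyltransferase gene Sevir.8G211600, against 106.8 to 113 FPKM in the others. Replicate 4 had 1636 FPKM of the decarboxylase-like Sevir.8G219500 against 1441 to 1458 FPKM in *spp1*, and replicate 4 of A10.1 at 10 DAS had 1694 FPKM of it against 1164 to 1176 FPKM. In A10.1 at 10 DAS, replicate 4 had 888 FPKM of Sevir.6G139800, and the other 3 had 347 to 417 FPKM, while replicate 1 had 4.81 FPKM of the GATA gene Sevir.4G246900, and the other 3 had 11.9 to 12.8 FPKM. In A10.1 at 14 DAS, replicate 4 had 191 FPKM of the lipid transfer family gene Sevir.9G333700, and the other 3 had 225 to 231 FPKM.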

How the results depend on the processing

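Between 12 and 14 DAS in *spp1*, where 39 of the 150 genes and 157 genes in all fell and 121 rose, 1 fit of all 22 libraries gave 65, 354 and 231, and no filter gave 19 of the 150 and 82 in all. A minimum of 5 FPKM gave 69 that rose, and the libraries of the 2 stages alone gave 97 that fell. With 1 library left out, 10 to 39 of the 150 fell, 30 to 156 genes fell and 35 to 128 rose in all, 142 to 149 of the 150 estimates were negative, and the median lay between -0.81 and -0.66. Between 10 and 12 DAS, where 5 of the 150 fell and 0 rose, with 254 and 201 over all genes, the fit of 22 libraries gave 13, 1, 453 and 577. Median-ratio scaling gave 11 of the 150 and a median of -0.40, no filter gave 2 of the 150, a minimum of 5 FPKM gave 152 genes that fell and 134 that rose, and the 2 stages alone gave 371 that rose. With 1 library left out, 1 to 11 of the 150 fell and 0 to 1 rose, 49 to 466 genes fell and 46 to 652 rose in all, 111 to 123 estimates were negative, and the median lay between -0.37 and -0.23. The cause was not tested.

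The sign of the late change turned for Sevir.4G246900 (0.0043 with median-ratio scaling, -0.26 to 0.32 with 1 library left out), for Sevir.7G276000 (-0.34 to 0.0061 with 1 library left out), and for Sevir.5G053200 (-0.17 to 0.42 with 1 library left out). With the replicate number as a block, 41 of the 150 genes fell late and 5 fell early, and 133 genes in all rose early. Same-numbered libraries had correlations of -0.17, 0.511 and 0.409 between 14 and 12 DAS and of 0.082, 0.015 and -0.041 between 12 and 10 DAS, not all over 0.1, so the numbers were not taken to pair the libraries. Applied with 1 A10.1 library left out, the definition kept 106 to 131 of the 150 genes, and it kept 134 with a pseudocount of 0.1 and 141 with median-ratio scaling. The median difference between genotypes at 14 DAS was 0.58 with median-ratio scaling and 0.57 without replicate 4 of *spp1*.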
